A study of Homo sapiens with 57 samples.

Results

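The caveolin genes CAV1 (Entrez gene 857) and CAV2 (Entrez gene 858) were examined as 2 of the 412 genes in a targeted expression panel. They were found by their Entrez identifiers in the count data of all 57 wells and were taken up because earlier results of these data had called CAV1 with one herb and CAV2 with another. HK-2 cells, an immortalised line derived from the proximal tubule of the human kidney, were grown in multiwell plates and exposed for 24 h to 90% ethanol extracts of 3 herbs used in Chinese medicine to warm the kidney. Roucongrong (Cistanche deserticola), Yinyanghuo (Epimedium brevicornu) and Gusuibu (Drynaria fortunei) were each given at 100 μg/mL to 3 wells, and each herb had its own set of 16 wells that received 0.5% DMSO, the solvent. Gene expression was read by RASL-seq, in which pairs of oligonucleotides annealed to an mRNA are ligated and the ligated products are sequenced and counted. HK-2 is a single line in culture, and nothing in the labels says that the wells of a group came from separate cultures, so the errors and p-values below describe the spread between wells.

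Caveolins are hairpin-shaped membrane proteins that build caveolae, the flask-shaped pits of the plasma membrane, together with the cavins. CAV1 is the principal structural caveolin outside striated muscle, whereas CAV2 joins CAV1 in mixed oligomers and depends on it to leave the Golgi and reach the cell surface. Caveolin-rich membrane also holds palmitoylated oestrogen receptor and G protein subunits, which take part in oestrogen signalling outside the nucleus.

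The caveolin genes are neighbours on one strand of chromosome 7. In RefSeq on GRCh38.p14, CAV2 spans chr7:116499738-116508541 and CAV1 spans chr7:116525009-116561185, with 16467 bases and 0 listed genes between them. The 250 bases before each start are shown because the neighbouring paralogs were compared well by well, and they are upstream sequence outside the transcripts. The capitals mark the GC box GGGCGG, the letters bound by SP-family factors, on either strand (CCGCCC when read on the printed strand). The CAV2 stretch is chr7:116499488-116499737 and the CAV1 stretch is chr7:116524759-116525008, both on the plus strand.
CAV2: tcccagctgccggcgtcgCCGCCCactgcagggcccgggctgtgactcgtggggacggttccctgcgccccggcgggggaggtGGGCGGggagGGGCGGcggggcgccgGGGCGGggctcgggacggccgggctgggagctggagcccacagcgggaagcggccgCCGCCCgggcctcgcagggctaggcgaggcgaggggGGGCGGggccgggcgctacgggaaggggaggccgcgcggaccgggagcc
CAV1: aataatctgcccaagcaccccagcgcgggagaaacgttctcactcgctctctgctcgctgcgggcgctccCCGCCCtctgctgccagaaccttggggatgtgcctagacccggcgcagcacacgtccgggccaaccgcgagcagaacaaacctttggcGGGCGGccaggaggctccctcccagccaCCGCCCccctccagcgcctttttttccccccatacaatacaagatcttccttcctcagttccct
The CAV2 stretch held 6 GC boxes at a GC content of 83.2%, and the CAV1 stretch held 3 at a GC content of 63.6%. A GC box was present in 42.6% of 35116 RefSeq promoter stretches of the same length, so its presence is common. The AP-1 motif TGANTCA, present in 6.57% of those stretches, was found in neither. These matches describe letters in the windows and say nothing of which factors were bound.

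Depth ranged from 13581 to 75969 counts per well with a median of 35239, and the shallowest well was Yinyanghuo well 2. The panel held few markers of cell type. Of 10 listed markers of proximal tubule or renal epithelium it measured CDH2 at 138 to 869 counts and VIM at 115 to 1615 counts. Both are also markers of mesenchymal cells, so the labelled origin could not be checked on markers specific to the proximal tubule. The endothelial marker CDH5, the leukocyte marker ITGAM and the fibroblast marker COL1A2 each had a median of 0 counts, while KDR had a median of 8 and ITGB2 a median of 10.

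CAV1 was among the well-sampled genes in DMSO wells and CAV2 was sparsely sampled. Levels are given as CPM, the count of a gene scaled to a fixed panel total, after TMM scaling of all 57 wells. In the DMSO wells of the Roucongrong set, CAV1 ranged from 18492 to 30294 CPM with a median of 22820. In the Gusuibu set, it ranged from 14454 to 20690 CPM with a median of 17746. In the Yinyanghuo set, it ranged from 13629 to 26839 CPM with a median of 15885. The 3 DMSO groups overlapped, with the Roucongrong set highest.

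CAV2 ranged from 487 to 1615 CPM with a median of 1026 in the DMSO wells of the Roucongrong set. It ranged from 286 to 2358 CPM with a median of 838 in the Yinyanghuo set. In the Gusuibu set, it ranged from 275 to 1604 CPM with a median of 615. These levels rested on few reads, with median raw counts of 40 (Roucongrong set), 27.5 (Yinyanghuo set) and 24 (Gusuibu set), against 952.5, 443 and 714.5 for CAV1 in the same order.

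**Figure D1:**
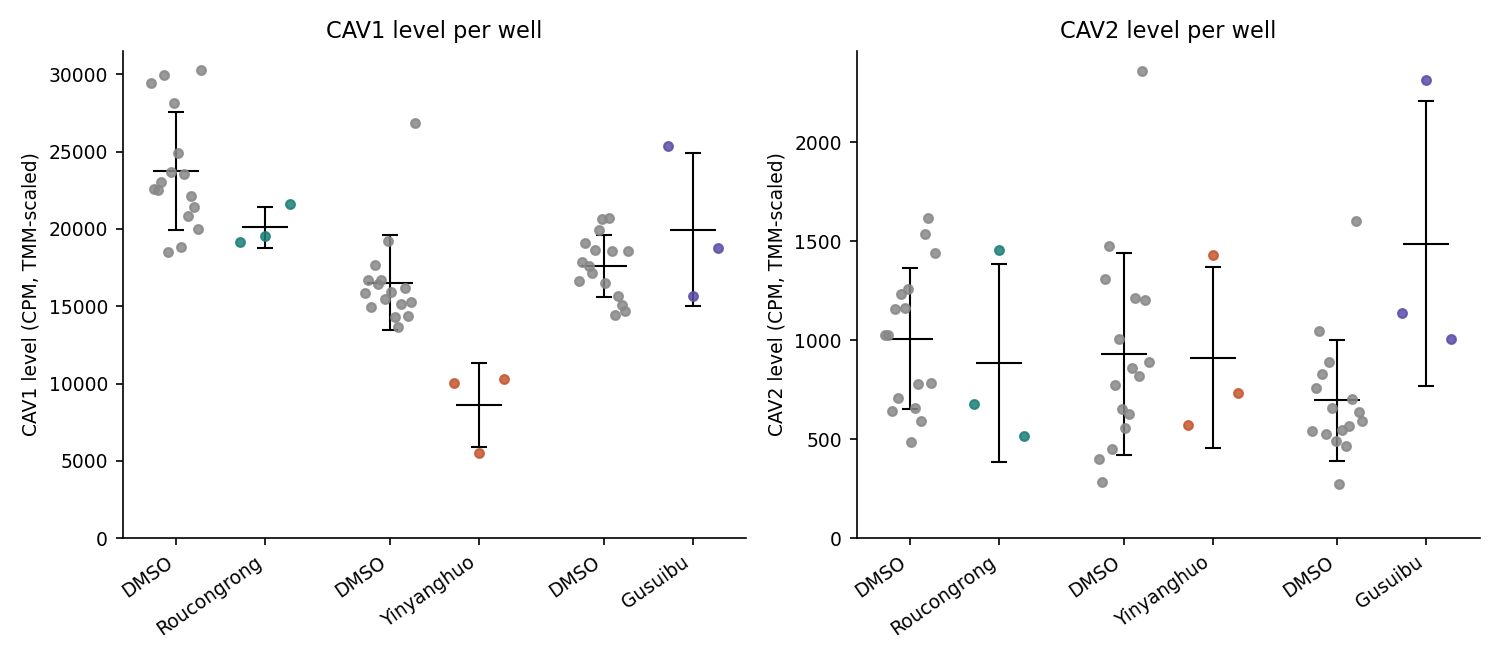
CAV1 (left) and CAV2 (right) level in each well, in CPM on linear axes that start at 0; grey points are DMSO wells, coloured points the 3 wells of the herb named under them, and the bars show the mean ± SD. All 3 Yinyanghuo wells sit below all 16 DMSO wells of their set for CAV1, and Gusuibu well 2 (2314 CPM) sits above the DMSO wells of its set for CAV2.

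In a DMSO well, the CAV1 count was a median of 23.9 times the CAV2 count in the Roucongrong set, 20.7 times in the Yinyanghuo set and 27.95 times in the Gusuibu set. Each gene is read by its own probe pair, so this is a ratio of reads and not of mRNA molecules. It varied widely between wells, from 6.09 to 58.5 in the Yinyanghuo set alone.

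CAV2 was the more variable of the pair. The coefficient of variation of CAV2 over 16 DMSO wells was 35.3% (Roucongrong set), 55.0% (Yinyanghuo set) and 43.7% (Gusuibu set), where counting error alone would give 16.4%, 21.9% and 21.6%. That of CAV1 was 16.1%, 18.6% and 11.4%, where counting error alone would give 3.28%, 4.67% and 4.09%. Counting error covers the sampling of reads only, since the reads carried no molecular identifiers, and wells that were handled separately would be above it in any case.

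Some well numbers recurred at the extremes. DMSO well 14 had the highest CAV2 level in all 3 sets, at 1615, 2358 and 1604 CPM in the Roucongrong, Yinyanghuo and Gusuibu sets. DMSO well 16 had the highest CAV1 level in the Roucongrong set (30294 CPM) and in the Yinyanghuo set (26839 CPM, where the next well had 19223). Well 2 likewise had the highest CAV2 level of the 3 treated wells with every herb. In correlations of deviations between wells, treated well 2 of every herb was closest to DMSO well 14 of its own set. Treated wells 1 and 3 were closest to DMSO wells of other numbers. Some DMSO wells of other numbers were also closest to DMSO well 14 of another set. The labels do not say what a well number marks. The part of well number in the CAV1 and CAV2 values was not itself tested. Fits with well number as a block, and without the DMSO wells numbered 14, are given below.

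The DMSO sets were compared with each other by edgeR's quasi-likelihood test, with p-values adjusted by Benjamini-Hochberg over 412 genes. No herb enters this comparison, although the same wells served as controls in the comparisons by which the genes were chosen. CAV1 was 1.35-fold higher in the Roucongrong set than in the Gusuibu set (23746 ± 3826 against 17610 ± 2005 CPM, mean ± SD, n = 16 each), a log2 difference of 0.43 (SE 0.07, edgeR adjusted p = 3.5e-06). It was 1.43-fold higher in the Roucongrong set than in the Yinyanghuo set (16534 ± 3070 CPM), a log2 difference of 0.52 (SE 0.07, edgeR adjusted p = 5.7e-08). The neighbouring Gusuibu and Yinyanghuo sets did not differ in CAV1 beyond their spread (log2 difference 0.09, SE 0.07, edgeR adjusted p = 0.508).

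CAV2 followed another order, with means of 1007 ± 355 CPM (Roucongrong set), 930 ± 511 CPM (Yinyanghuo set) and 695 ± 304 CPM (Gusuibu set). Neighbours in that order did not differ beyond their spread when well number was left out of the fit. The log2 difference was 0.13 (SE 0.20, edgeR adjusted p = 0.776) between the Roucongrong and Yinyanghuo sets. For Gusuibu minus Yinyanghuo it was -0.41 (SE 0.21, edgeR adjusted p = 0.239). With well number as a block, the latter passed an adjusted p of 0.05 (-0.39, SE 0.14, edgeR adjusted p = 0.0411). The outer pair, Roucongrong minus Gusuibu, differed by 0.54 on the log2 scale (SE 0.20, edgeR adjusted p = 0.0469), a call that was lost under 4 alternative settings. The call was kept with the filterByExpr filter (0.53, edgeR adjusted p = 0.0425) and with well number as a block (0.56, SE 0.13, edgeR adjusted p = 0.000267). It was also kept without the DMSO wells numbered 14 (0.57, edgeR adjusted p = 0.0144), an alternative chosen after seeing the data. Differences between sets were common across the panel, since 22.6% of genes passed an adjusted p of 0.05 for Roucongrong minus Gusuibu, 21.4% for Roucongrong minus Yinyanghuo and 5.83% for Gusuibu minus Yinyanghuo. Each herb was therefore compared with the DMSO wells of its own set.

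The caveolins showed no common variation that was detectable among DMSO wells. The correlation of log2 CPM between CAV1 and CAV2 over 16 DMSO wells was r = 0.12 in the Roucongrong set (rho = 0.07), r = -0.14 in the Yinyanghuo set (rho = -0.29) and r = -0.13 in the Gusuibu set (rho = -0.04). The permutation p-values of r were 0.658, 0.607 and 0.624, and those of rho 0.788, 0.283 and 0.900. After adjustment over the family of 9 relations, p was 0.658 for r in every set, and 0.887, 0.510 and 0.900 for rho. Without the 2 wells farthest from the median of CAV1, r was 0.10, -0.31 and -0.24.

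**Figure D2:**
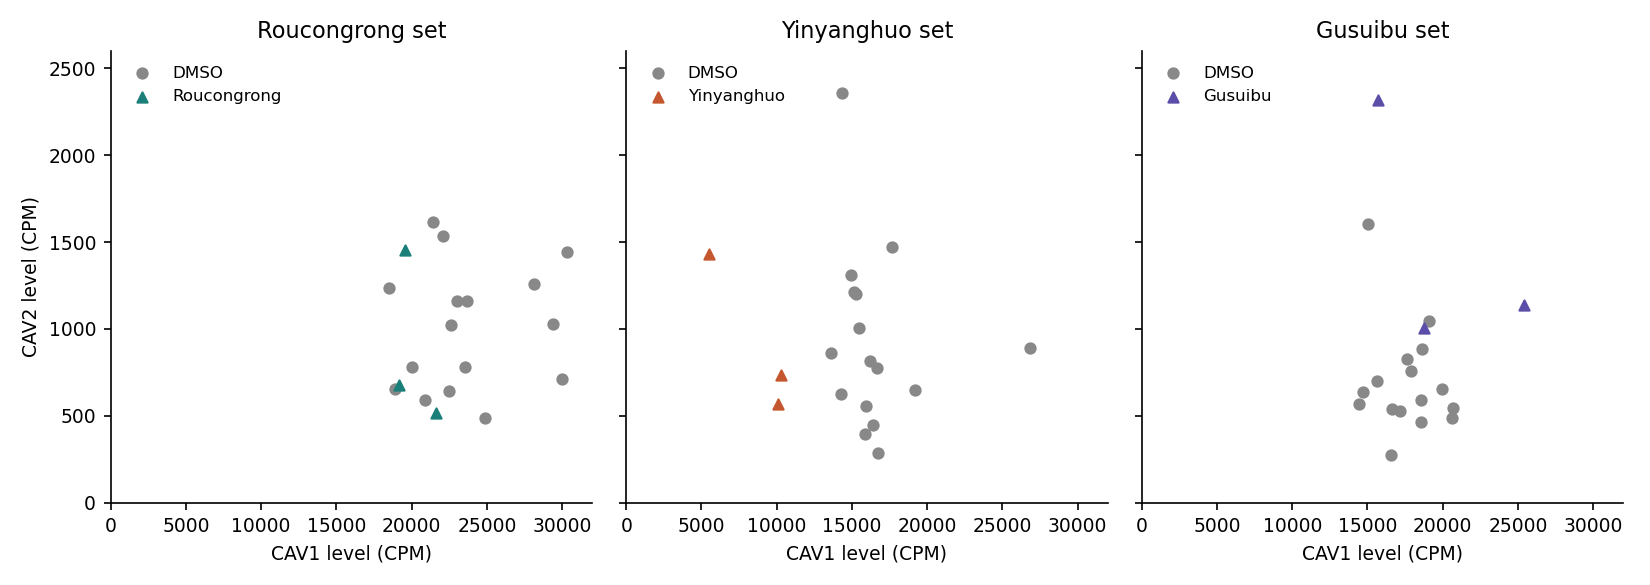
CAV2 level against CAV1 level in each well, both in CPM on linear axes, with 1 panel per set; grey circles are DMSO wells and coloured triangles the 3 wells of the herb. The DMSO wells show no common slope (r = 0.12, -0.14 and -0.13 in the Roucongrong, Yinyanghuo and Gusuibu sets), the Yinyanghuo wells lie to the left of their DMSO wells and Gusuibu well 2 lies above its own.

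The caveolins differed in how their raw counts followed the depth of the well. A gene that takes a fixed share of the reads has a slope of 1 between the log2 count and the log2 total. CAV1 had slopes of 1.03 ± 0.12 (SE, Roucongrong set), 1.22 ± 0.17 (Yinyanghuo set) and 1.19 ± 0.09 (Gusuibu set). CAV2 had slopes of 0.28 ± 0.32, -0.14 ± 0.62 and 0.30 ± 0.39 in the same order, so its count hardly rose with the total. Over the 183 panel genes with a mean DMSO count of at least 10 the median slope was 1.02, and 15 of them (8.20%) had a slope under 0.5 in every set. Among the 71 genes with mean counts of 15 to 60, the range that holds CAV2, 10 (14.1%) did.

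The same pattern in CPM gave CAV2 a negative correlation with log2 total count in every set, with r = -0.50 in the Roucongrong set (rho = -0.54), -0.42 in the Yinyanghuo set (rho = -0.40) and -0.42 in the Gusuibu set (rho = -0.52). None passed the adjustment over the 9 relations (permutation adjusted p = 0.198 for each r, and 0.126, 0.290 and 0.126 for rho). CAV1 had r = 0.14 (rho = 0.13), 0.45 (rho = 0.21) and 0.62 (rho = 0.54), with permutation adjusted p = 0.658, 0.198 and 0.0937 for r and 0.825, 0.663 and 0.126 for rho. Without the 2 wells of most extreme depth r was -0.61, -0.44 and -0.59 for CAV2 and -0.19, 0.06 and 0.44 for CAV1. The CAV2 values kept their sign, whereas the CAV1 value in the Roucongrong set did not.

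**Figure D3:**
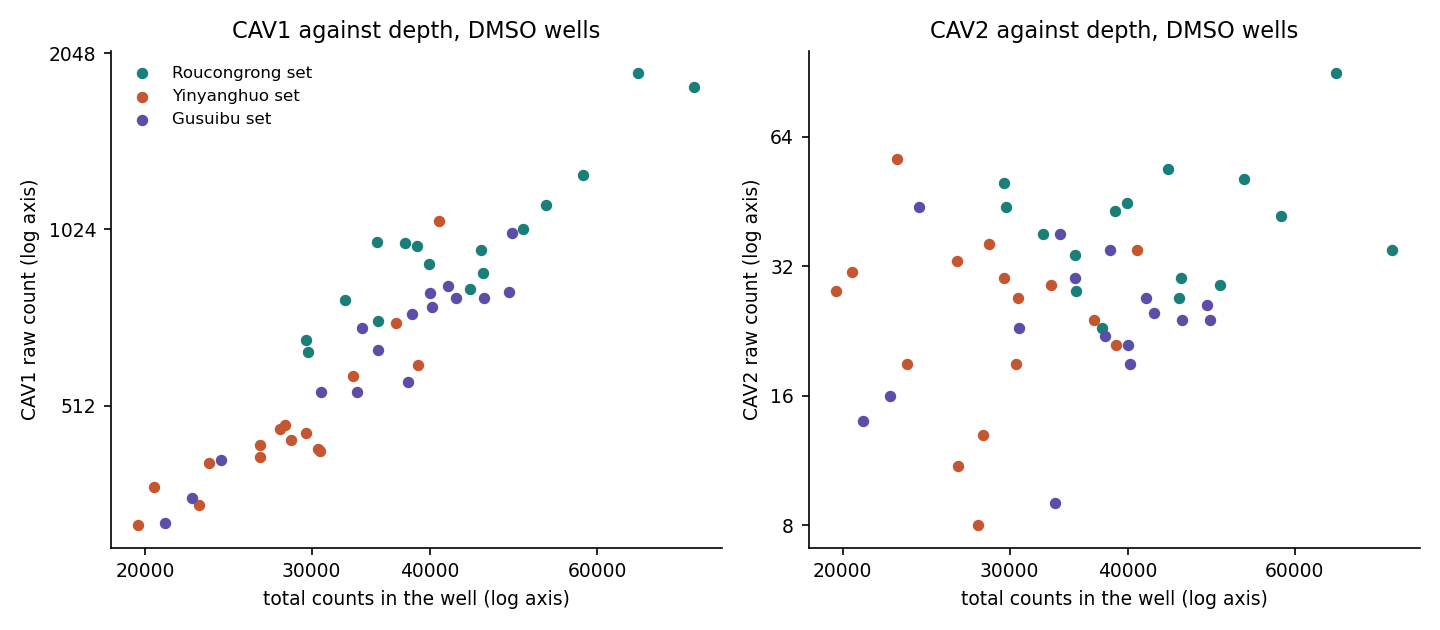
Raw count of CAV1 (left) and CAV2 (right) against the total count of the well, on log axes, for the 48 DMSO wells coloured by set. CAV1 counts climb with the total in every set (slopes of 1.03 to 1.22), whereas CAV2 counts scatter with slopes of -0.14 to 0.30.

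The panel genes whose levels varied most like each caveolin were taken over the 48 DMSO wells, as Pearson's r of log2 CPM centred within each set, among 182 other genes. Those for CAV1 were SMAD4, the shared mediator of TGF-β signalling (r = 0.63), the small GTPase CDC42 (0.62), the hypoxia factor HIF1A (0.62), the Mediator subunit MED1 (0.60) and the cytokine IL6 (0.59). Those for CAV2 were the kinase PIM1 (0.79), the focal adhesion kinase relative PTK2B (0.79), the phospholipase PLCG1 (0.76), and the G protein subunits GNGT2 (0.74) and GNAI1 (0.74). CAV2 had 7 genes with r above 0.7 and CAV1 had 0, while CAV1 and CAV2 had r = -0.05 with each other, which placed each gene at rank 115 (CAV2 for CAV1) and 68 (CAV1 for CAV2) of the 182. All of these wells share the scaling to the total, so r is a description.

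The genes alike to CAV2 shared its flat relation to depth. Averaged over the sets, the slope of count on total was 0.14 for CAV2, -0.36 for PIM1, 0.03 for PTK2B, -0.17 for PLCG1, -0.52 for GNGT2 and 0.26 for GNAI1. The genes alike to CAV1 had slopes of 0.93 (MED1) to 1.11 (SMAD4), beside 1.15 for CAV1. The part of depth in the likeness of the CAV2 group was not tested.

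With Roucongrong, neither caveolin passed the test. CAV1 stood at 19155, 19565 and 21631 CPM in wells 1 to 3, within the range of the 16 DMSO wells (18492 to 30294) but below their median of 22820 in 3 of 3 wells. The log2 fold change was -0.25 (SE 0.13, 95% interval -0.52 to 0.02), with an edgeR adjusted p of 0.319 over 402 genes. The exact permutation test over all 969 choices of 3 from 19 wells gave p = 0.109 (two-sided, smallest possible 0.00103). A fall of up to 0.52 on the log2 scale thus lay within the interval.

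CAV2 stood at 679, 1454 and 517 CPM in the Roucongrong wells, on 21, 57 and 17 counts. These values straddled the DMSO median of 1026 CPM, with only well 2 above it. The log2 fold change was -0.16 (SE 0.33, 95% interval -0.85 to 0.54), with an edgeR adjusted p of 0.835 and an exact permutation p of 0.516. It was -0.77 without well 2 and 0.15 without well 3, so at this depth neither direction was settled. Across the panel, 10.2% of genes were called in the Roucongrong comparison (7.21% up and 2.99% down) by the thresholds of the study, a fold change above 1.5 or below 0.67 at an unadjusted p under 0.05.

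With Yinyanghuo, CAV1 was lower in every treated well. It stood at 10066, 5513 and 10277 CPM in wells 1 to 3, on 212, 81 and 364 counts, against 13629 to 26839 CPM in the DMSO wells. The groups did not overlap, and well 2, which was also the shallowest, was lowest. The log2 fold change was -0.95 (SE 0.17), a level 0.516 times that of DMSO, and it was -0.74 without well 2. CAV1 had been chosen for this difference, so it is given as a description, beside a panel in which 15% of genes passed the thresholds of the study with Yinyanghuo, 7.75% up and 7.25% down.

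CAV2 showed no such separation from its DMSO wells. It stood at 570, 1429 and 734 CPM in the Yinyanghuo wells, on 12, 21 and 26 counts, all within the DMSO range of 286 to 2358 CPM. The log2 fold change was -0.09 (SE 0.44). The sign of the CAV2 fold change depended on the setting, with 0.06 by DESeq2 and 0.48 with the replicate block. That block, by well number, in effect sets the treated wells against DMSO wells 1 to 3 only. DMSO wells 1 and 2 had the lowest CAV2 levels of this set, at 398 and 286 CPM. The median log2 fold change of all panel genes with Yinyanghuo was itself -0.13 with TMM scaling and 0.12 with DESeq2. Relative to that median, CAV1 stood at -0.82 (TMM) and -0.98 (DESeq2) and CAV2 at 0.05 and -0.06.

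With Gusuibu, CAV2 was higher, most of all in well 2. It stood at 1139, 2314 and 1006 CPM in wells 1 to 3, on 20, 95 and 49 counts, against 275 to 1604 CPM in the DMSO wells. Well 2 exceeded all 16 DMSO wells, well 1 exceeded 15 and well 3 exceeded 14, so the groups overlapped. Well 1 had 20 CAV2 counts, under the DMSO median of 24, in a total of 18177 counts, under the lowest DMSO total of 21006, so its high CPM came with a low total. The log2 fold change was 1.13 (SE 0.29), a 2.19-fold difference, but it was 0.58 without well 2 and then no longer met the thresholds of the study. Against the 32 DMSO wells of the Roucongrong and Yinyanghuo sets it was 0.64 and again not called. CAV2 had been chosen for this difference, which is a description, and 9.45% of genes passed the thresholds with Gusuibu, 7.71% up and 1.74% down.

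CAV1 stood at 25390, 15690 and 18783 CPM in the Gusuibu wells, against 14454 to 20690 CPM with DMSO. Well 1 was above every DMSO well, whereas well 2, with the highest CAV2, had the lowest CAV1 of the 3. The log2 fold change was 0.14 (SE 0.11), and -0.01 without well 1.

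Some listed markers of cell type were called or passed adjustment in some of these comparisons, although the wells are labelled as a single line. The endothelial marker KDR, a VEGF receptor, had 4, 40 and 15 counts in the Gusuibu wells against 2 to 21 with DMSO, and was called by the thresholds of the study (log2 fold change 1.34, SE 0.47, edgeR adjusted p = 0.101). Its highest count was in well 2, as for CAV2, while the other endothelial marker in the panel, CDH5, had 2, 1 and 0 counts against 0 to 6 with DMSO. CDH2 (-0.58, SE 0.10, edgeR adjusted p = 0.00239) and VIM (-0.40, SE 0.10, edgeR adjusted p = 0.0187) fell with Gusuibu. VIM had -0.52 (SE 0.17, edgeR adjusted p = 0.0702) with Yinyanghuo, the comparison in which CAV1 was lower, and by DESeq2 1 of the 2 renal markers passed an adjusted p of 0.05 there. With Yinyanghuo the leukocyte marker ITGB2 was called higher on 18, 2 and 25 counts (0.98, SE 0.43, edgeR adjusted p = 0.187), whereas ITGAM had 0 counts in all 3 wells, and with Roucongrong no marker was called. Neither KDR with Gusuibu nor ITGB2 with Yinyanghuo passed adjustment. Over all genes tested, the thresholds of the study called 9.45% with Gusuibu, 15% with Yinyanghuo and 10.2% with Roucongrong. An edgeR adjusted p under 0.05 was reached by 5.22%, 7.5% and 2.99% of genes in the same order. The part of these markers in the CAV1 and CAV2 values was not tested. A change in how many cells express a gene cannot be told apart from a change in its RNA per cell in such wells.

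**Figure D4:**
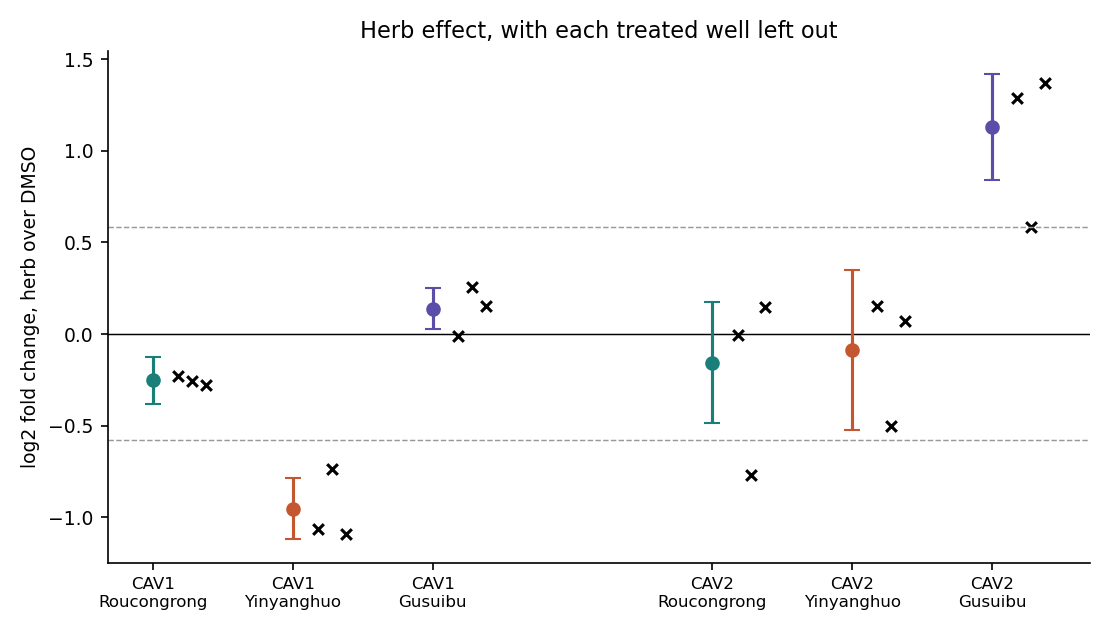
Log2 fold change of CAV1 and CAV2 with each herb over its own DMSO wells; circles with bars are the estimate ± SE from edgeR, crosses the estimates with treated well 1, 2 or 3 left out (left to right), and dashed lines the fold thresholds of 1.5 and 0.67. CAV1 with Yinyanghuo stays below the lower line in every case (-0.74 without well 2), and CAV2 with Gusuibu comes down to the upper line without well 2 (0.58).

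The ratio of CAV1 to CAV2 within a well does not depend on the scaling between wells, but it is not free of depth. Among DMSO wells CAV1 counts rose with the total (slopes of 1.03 to 1.22), whereas CAV2 counts hardly did (-0.14 to 0.30). With Roucongrong the CAV1 count was 28.2, 13.5 and 41.8 times the CAV2 count in wells 1 to 3, within the DMSO range of 13.3 to 51.1. The mean log2 ratio differed from DMSO by 0.002 (exact permutation p = 0.996). With Yinyanghuo the count ratios were 17.7, 3.86 and 14, a mean log2 ratio lower by 1.01 than with DMSO, and well 2 was below the lowest DMSO ratio of 6.09. With Gusuibu they were 22.3, 6.78 and 18.7, a mean log2 ratio lower by 0.87, and well 2 was again below the lowest DMSO ratio, of 9.39. Without well 2, the difference in the mean log2 ratio was -0.36 for either herb. Yinyanghuo well 2 had a total of 13581 counts, under the lowest DMSO total of 19690. Gusuibu well 2 had 36206, within the DMSO range of 21006 to 48769. The part of depth in the ratio was not tested. Whether the herbs differed from each other in CAV1 or CAV2 was not tested, as both genes were chosen on how these herbs differed.

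The genes alike to each caveolin in DMSO wells were then followed into the treated wells. The 4 of the CAV2 group called with Gusuibu were PIM1 (log2 fold change 1.40), PTK2B (1.30), PLCG1 (1.40) and GNGT2 (1.08), and GNAI1 had 0.58 and was not called, where 9.45% of all genes were called. All 5 were highest in Gusuibu well 2, as was CAV2, where they stood 1.15 to 2.16 above the DMSO median on the log2 scale and above every DMSO well. With Yinyanghuo none of the 5 was called, where 15% of all genes were. PTK2B, PLCG1, GNGT2 and GNAI1 were nonetheless also highest in well 2, the well with the highest CAV2 for that herb. There PLCG1 (2.03), GNGT2 (2.17) and GNAI1 (1.66 from the DMSO median on the log2 scale) stood above every DMSO well. Their highest DMSO wells were at 1.91, 2.12 and 1.64, while PTK2B (1.80) lay under its own (1.92). With Roucongrong none of the 5 was called, where 10.2% of all genes were, and all 5 were again highest in well 2, as was CAV2. GNAI1 stood there above every DMSO well, at 0.71 against 0.54 from the DMSO median on the log2 scale. The others lay within their DMSO range in well 2. In Roucongrong well 3, PIM1 (-2.22 against a lowest DMSO well of -0.90) and GNAI1 (-0.79 against -0.67) lay below theirs. The likeness used the same DMSO wells as these comparisons, so the values are set side by side only.

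With Yinyanghuo, the genes alike to CAV1 were mixed. CAV1 had a log2 fold change of -0.95, whereas SMAD4 had -0.003, HIF1A -0.001, MED1 0.04 and CDC42 -0.37, none of them called, and IL6 was called higher at 1.33. CDC42 was the one of the 5 that lay, like CAV1, below every DMSO well in 3 of 3 wells, at -0.24, -0.67 and -0.24 from the DMSO median on the log2 scale against a lowest DMSO well of -0.22. With Gusuibu, all 5 were highest in well 1, as was CAV1, and each was there above all its DMSO wells. With Roucongrong, MED1 was called lower (-0.61) and the other 4 were not called. SMAD4 had -0.35, HIF1A -0.32, CDC42 -0.29 and IL6 -0.06, beside -0.25 for CAV1. MED1 lay below every DMSO well in 3 of 3 wells, SMAD4 in wells 2 and 3, and CDC42 and HIF1A in well 1. Over all genes, 15% were called with Yinyanghuo and 10.2% with Roucongrong.

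**Figure D5:**
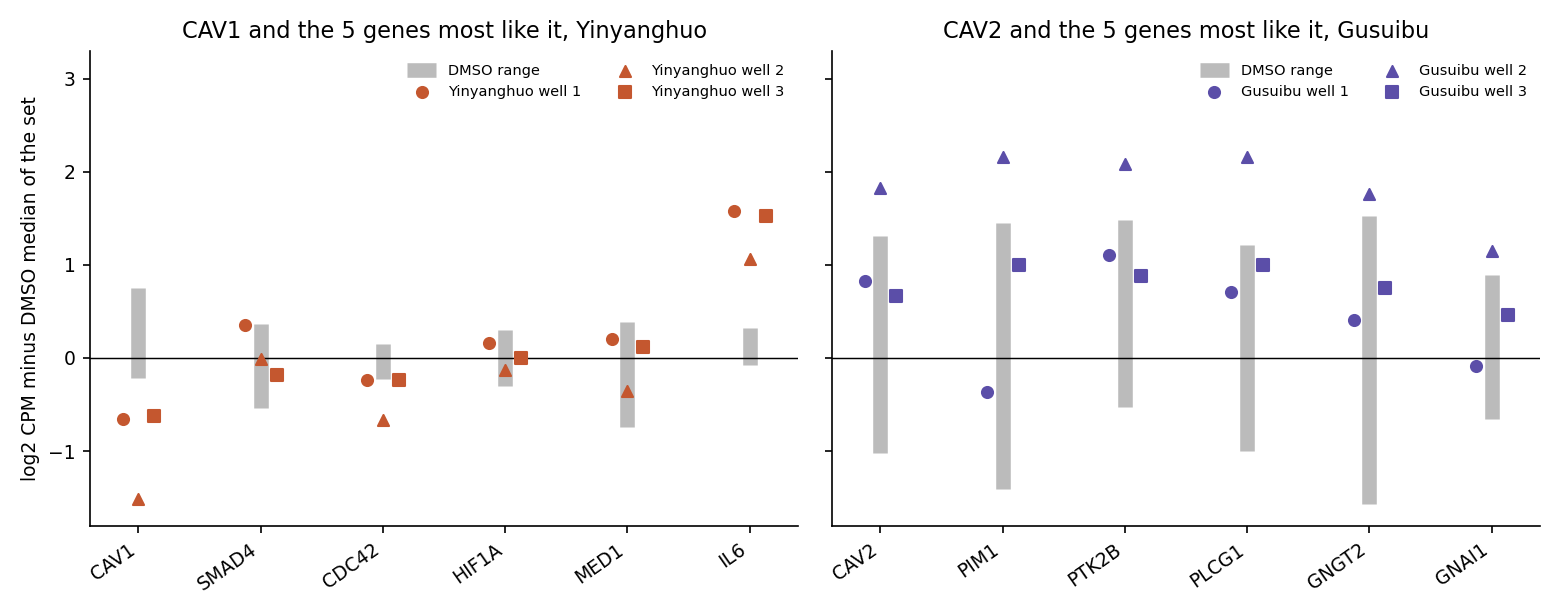
Log2 CPM of each treated well minus the median of the DMSO wells of its set, for CAV1 and the 5 genes most like it with Yinyanghuo (left) and CAV2 and the 5 genes most like it with Gusuibu (right); grey bars span the 16 DMSO wells. CAV1 lies below its bar in 3 of 3 Yinyanghuo wells, as CDC42 does by less, while IL6 lies above its own, and all 6 genes on the right are highest in Gusuibu well 2.

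Of 10 listed components of caveolae, only CAV1 and CAV2 were in the panel, so the cavins and other coat proteins were not measured. Of 72 listed genes of extra-nuclear oestrogen signalling, 48 were in the panel. With Roucongrong 6 of the 47 tested were called higher and 2 lower, with Yinyanghuo 2 of 48 were called higher and 3 lower, and with Gusuibu 3 of 47 were called higher and 0 lower. Over all genes tested, the same thresholds called 10.2% (7.21% up and 2.99% down), 15% (7.75% and 7.25%) and 9.45% (7.71% and 1.74%) in that order. The median log2 fold change of the list with Roucongrong was 0.15, beside -0.04 over all genes. With Yinyanghuo it was -0.19, beside -0.13 over all genes, and with Gusuibu it was 0.14, beside 0.04. When sparser genes, averaging under 5 counts, were dropped, the list had medians of -0.05 (Roucongrong, 31 tested), -0.13 (Yinyanghuo, 30 tested) and 0.10 (Gusuibu, 29 tested). All genes so kept had -0.05, -0.01 and 0.04 in the same order. The Roucongrong median of the list thus no longer stood apart.

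Over all genes tested, 2.99% had an edgeR adjusted p under 0.05 with Roucongrong, 7.5% with Yinyanghuo and 5.22% with Gusuibu. Members of the list that did so with at least 1 herb included EREG, GNG3 and GNG5. EREG, an EGF receptor ligand, rose with Roucongrong (log2 fold change 0.80, SE 0.13, edgeR adjusted p = 0.000312), Yinyanghuo (0.89, SE 0.18, adjusted p = 0.00127) and Gusuibu (0.53, SE 0.12, adjusted p = 0.0120), the last being under the 1.5-fold criterion. The G protein γ subunit gene GNG5 fell with Gusuibu (-0.41, SE 0.12, edgeR adjusted p = 0.0298). The call of GNG3, another γ subunit gene, with Roucongrong (edgeR adjusted p = 0.00142) rested on 11 counts in well 3 alone, against 0 and 1 in the other wells and 0 to 1 with DMSO.

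Of 19 listed proteins known to associate with caveolin, 12 were in the panel, and 2 were called higher and 1 lower with Roucongrong, 1 higher and 1 lower with Yinyanghuo, and 2 higher and 0 lower with Gusuibu, beside 10.2%, 15% and 9.45% called over all genes. The median log2 fold change of this list was -0.06, 0.34 and 0.03 with the 3 herbs in that order. Over all genes it was -0.04, -0.13 and 0.04. With sparser genes dropped as above, this list had -0.10 (8 tested), -0.001 (8 tested) and -0.007 (9 tested). All genes so kept had -0.05, -0.01 and 0.04. The higher median of this list with Yinyanghuo was thus not kept. HMOX1, haem oxygenase 1, which has been found in caveolae, rose with Roucongrong from a DMSO median of 199.5 counts to 455, 842 and 768 (log2 fold change 1.87, SE 0.13, edgeR adjusted p = 6.1e-12). It rose with Yinyanghuo from a DMSO median of 108.5 counts to 161, 143 and 226 (1.07, SE 0.15, edgeR adjusted p = 1.3e-05). With Gusuibu it had 0.17 (SE 0.15, edgeR adjusted p = 0.577). Integrin β1 (ITGB1) fell with Gusuibu (-0.38, SE 0.11, edgeR adjusted p = 0.0282) and had -0.36 (SE 0.15, edgeR adjusted p = 0.177) with Yinyanghuo.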

How the data were processed

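RASL-seq counts were deposited for each of 57 wells. Reads with over 3 mismatches had been filtered out by the authors, and the submitters' processing notes name Bowtie2 2.2.4 and DESeq2 1.22.1. The reference used for alignment is not given in the sources used here. The deposited values are raw counts per Entrez gene, without molecular identifiers. Groups and well numbers came from the labels. Each herb was compared with its own DMSO set in edgeR 4.0.16 (R 4.3.3), using TMM scaling, quasi-likelihood tests, all genes with a nonzero total and Benjamini-Hochberg adjustment. Calls used the study's criteria of a fold change above 1.5 or below 0.67 with an unadjusted p under 0.05. Fold changes are shown without p for CAV1 and CAV2 with Yinyanghuo and Gusuibu. Log2 CPM used a prior count of 2, and correlations used 100000 permutations (scipy 1.17.1). Alternatives were RLE and total-count scaling, DESeq2 1.42.0, a mean count of at least 5, filterByExpr, 1 fit of all wells, the other sets' DMSO wells, a replicate block, a prior count of 0.5 and leaving out wells. Genes were named as CAV1, CAV2, the 5 genes most like each (mean count of at least 10) and listed genes with an adjusted p under 0.05 in at least 1 herb, of which 1 is not reported here. Members and lists were chosen with earlier results of these data known. Scripts for the tests were tested on simulated data. Promoter sequences came from RefSeq on GRCh38.p14, and both genes matched.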

Additional observations from a re-analysis of the deposited data

How the results depend on the processing

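CAV1 with Yinyanghuo, chosen for this difference and so given as a description, was -1.09 to -0.74 with a treated well left out and -1.27 when compared with the other sets' DMSO wells. CAV2 with Gusuibu ranged from 0.58 (without well 2, not called) to 1.37 with a treated well left out, and was 0.64 (not called) with the other sets' DMSO wells as controls, which also turned the uncalled values of CAV1 with Roucongrong to 0.21, of CAV2 with Roucongrong to 0.14 and of CAV1 with Gusuibu to -0.035. CAV2 with Roucongrong ranged from -0.77 to 0.15 with a treated well left out, and the CAV1 to CAV2 log2 ratio from -0.34 (without well 3) through -0.08 (without well 1) to 0.43. The difference in CAV2 between the Roucongrong and Gusuibu DMSO sets lost its call with RLE scaling (0.51), total-count scaling (0.45), DESeq2 (0.51) and a mean count of at least 5 (0.48). It kept the call with filterByExpr (0.53), the replicate block (0.56) and without the DMSO wells numbered 14 (0.57). The weak correlations of CAV1 with CAV2 changed sign in the Yinyanghuo set with RLE scaling (0.016) and given the total (0.063), and in the Gusuibu set with total-count scaling (0.14), given the total (0.18) and without DMSO well 14 (0.12). Leaving out the DMSO wells numbered 14 was an alternative chosen after seeing the data, under which CAV2 with Gusuibu was 1.25. The cause of these shifts was not tested. Of the extra-nuclear oestrogen signalling list, 4 genes in place of 8 were called with Roucongrong at a mean count of at least 5, where 31 were tested, and 5 in place of 3 with Gusuibu under RLE scaling.

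Well numbers were not used to pair the samples in the main comparisons. Same-numbered treated and DMSO wells had correlations of deviations from -0.48 to 0.44. Between DMSO sets, 9 to 10 of 16 numbers exceeded 0.1, and 2 to 6 of 16 wells correlated best with their own number. The median was 0.25 (Roucongrong with Gusuibu), 0.13 (Roucongrong with Yinyanghuo) and 0.17 (Gusuibu with Yinyanghuo). The highest was that of DMSO well 14 each time, at 0.58, 0.70 and 0.68 in the same order. With the replicate block, CAV1 had -0.30 (Roucongrong), -0.97 (Yinyanghuo) and 0.12 (Gusuibu), and CAV2 had -0.08, 0.48 and 0.85. These herb values in effect used only DMSO wells 1 to 3, the numbers shared with treated wells. The CAV2 difference of Gusuibu minus Yinyanghuo DMSO wells became a call with the block (-0.39, edgeR adjusted p = 0.0411).

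CAV2 rested on 8 to 95 counts a well, and each herb had only 3 treated wells, so its estimates were wide at this depth.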
